A study of Mus musculus with 28 samples.

Results

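The p53 target genes described here are genes whose transcription p53, a stress-activated transcription factor, is known to raise. Of 10 listed, 9 had a probe set in the annotation used: Perp, Sesn1, Sesn2, Tnfrsf10b, Trp53inp1, Phlda3, Cdkn1a, Mdm2 and Ccng1. They are 9 of the 22180 genes tested. Neither Bax nor Trp53, the gene of p53 itself, was analysed here. Each had 1 probe set under its symbol, so no choice between probe sets was needed. The members were chosen by their measured differences between untreated double-knockout lungs and the other untreated lungs, and those contrasts are therefore given as descriptions, with no p-value.

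RNA of whole lungs from mice at postnatal day 0 was hybridised to 28 arrays, each holding a single animal. The untreated groups were Control (3 arrays), HRas-KO (3), NRas-KO (3) and DKO (5), the last lacking both HRAS and NRAS. The matching NAC groups, Control+NAC with 4 arrays, HRas-KO+NAC with 3, NRas-KO+NAC with 3 and DKO+NAC with 4, came from pregnancies in which the dams received N-acetyl cysteine (NAC), an antioxidant and glutathione precursor, at 0.5%. Grouping followed each sample's own labels, which give NAC for 14 arrays, although a general treatment note lists only 3 as exposed. For HRas-KO+NAC the exposure stands in the source labels and not in the titles. Strain, how the alleles were deleted, and whether any deletion is limited to a cell type are not given in the sources used here.

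In unstressed cells p53 is kept low by MDM2, a ubiquitin ligase that p53 itself induces, so that the pathway holds its own brake. When p53 is stabilised it raises genes that stop the cell cycle, genes that damp growth signalling and oxidative stress, and genes that trigger death through surface receptors or mitochondria. Several of these genes are also raised by other factors without p53, among them ATF4, FOXO proteins and the glucocorticoid receptor, which is active in the lung around birth.

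The deposited values are log2 probe-set levels, and differences below are differences of log2 levels, so that a difference of 1 is a doubling. All 9 genes were among the brighter ones: the dimmest, Tnfrsf10b, lay above 64.4% of all genes in its mean level, and no filter on low values removed any of them. Levels of different genes cannot be compared on this scale, because each probe set binds with its own strength.

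Across the whole table, array medians lay between 5.25 and 5.41. Nras, the deleted gene that could be checked, read 8.07 to 8.47 in all 13 arrays labelled as carrying it and 7.40 to 7.80 in 14 of the 15 arrays labelled NRas-KO or DKO. The exception was DKO+NAC replicate 4, at 8.08. Hras was not analysed here. Lung identity was checked with alveolar type 2 cell markers, the surfactant genes among them, of which 10 of 10 were measured, and their mean level lay between 10.73 and 11.27 on every array. Titles close with an animal code whose first part, here called the code start, is shared by some animals; the labels leave its meaning unstated. Untreated and NAC arrays had no code start in common, nor did untreated DKO arrays and any other group, so that NAC and code start, and untreated DKO and code start, cannot be told apart.

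The sequences upstream of the genes bear on which of them carry a recognisable p53 element near their start. RefSeq promoter windows on GRCm38.p6, reaching from 250 bases before to 50 after a transcription start, were at hand for 6 of the 9 genes, in 8 windows; Perp, Tnfrsf10b and Trp53inp1 were not in that table. The p53 half-site, a palindromic motif of 10 bases, was searched on both strands. It stood in 4 of the 8 windows, one each for Cdkn1a, Ccng1, Mdm2 and Sesn1, against 8.36% of all 32851 windows in the table. The stretches around these matches are printed 5′ to 3′ along the gene's own strand, with the half-sites in capitals.
Cdkn1a: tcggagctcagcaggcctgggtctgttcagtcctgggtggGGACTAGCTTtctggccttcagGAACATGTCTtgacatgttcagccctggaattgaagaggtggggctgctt
Ccng1: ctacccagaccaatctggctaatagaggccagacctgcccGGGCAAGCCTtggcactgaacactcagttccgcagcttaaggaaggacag
Mdm2: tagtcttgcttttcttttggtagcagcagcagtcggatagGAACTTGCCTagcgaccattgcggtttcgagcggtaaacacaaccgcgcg
Sesn1: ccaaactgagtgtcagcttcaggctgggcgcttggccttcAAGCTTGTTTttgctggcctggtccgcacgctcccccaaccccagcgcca

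The Cdkn1a stretch is chr17:29090866-29090977 on the plus strand, with half-sites 73 to 64 and 51 to 42 bases before the start, 12 bases apart. The second of them is followed without a gap by another half-site with 1 mismatch, the lower-case bases next to it. Another annotated Cdkn1a start lies 2790 bases downstream, and its window held no half-site. The Ccng1 stretch is chr11:40755422-40755511 on the minus strand; its half-site, which ends 176 bases before the start, directly follows a half-site with 1 mismatch. Such a pair, with at most 13 bases between its parts and at most 1 mismatch, occurred in 1.09% of all windows, and among the 6 genes searched in these 2 only. The Mdm2 stretch is chr10:117710895-117710984 on the minus strand, with a lone half-site that ends 177 bases before the start. The Sesn1 stretch is chr10:41887226-41887315 on the plus strand and belongs to the downstream one of 2 annotated starts, with a lone half-site 173 to 164 bases before it. No half-site stood in the Phlda3 or Sesn2 windows, which says only that these letters are not in those 300 bases. The 4 letters CATG, the core of many p53 elements, stood in 3 of the 8 windows, those of Phlda3 and Sesn2 and the upstream one of Cdkn1a, against 61.1% of all windows. A match is a description of the letters and not a binding site.

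Untreated DKO lungs had higher levels of 5 of the 9 genes than Control and a lower level of 1, while Mdm2 and Ccng1, 2 of the genes with a promoter half-site, differed little. The largest differences were in Perp and in the death receptor Tnfrsf10b. In limma, 6 of the 9 passed the threshold (adjusted p under 0.05 over all genes) in DKO against Control, where 3.83% of all genes did (2.48% higher and 1.35% lower), and 2 did without Control replicate 1. Against HRas-KO 7 of the 9 passed it, where 5.63% of all genes did, and against NRas-KO 7 passed it, where 4.95% of all genes did. Since these contrasts chose the list, neither those counts nor the members' median difference of 0.77, against 0.02 over all genes in DKO against Control, is evidence about the list. Whole lung was measured, so more cells of a type and more RNA per cell cannot be told apart.

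Perp encodes a membrane protein of desmosomes that p53 induces during apoptosis. Its level was 9.55, 9.67, 9.52, 9.60 and 10.05 in the untreated DKO arrays and 8.22, 8.99 and 8.31 in Control. It read 8.80, 8.06 and 8.73 in HRas-KO and 8.03, 8.72 and 8.42 in NRas-KO. Every DKO array stood above all 9 other untreated arrays. The difference from Control was 1.17 ± 0.18 (SE), or 2.25-fold, and those from HRas-KO and NRas-KO were 1.15 ± 0.18 and 1.29 ± 0.18. Marker genes of skin, a tissue with high Perp, were raised in 2 NRas-KO arrays: the mean deviation of 11 measured epidermal markers of 12 was 1.27 and 0.50 there and at most 0.17 on all other arrays. Perp read 8.72 and 8.42 in those 2 arrays and 8.03 in the other NRas-KO array, and the part of skin tissue in these levels was not tested.

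Tnfrsf10b encodes the mouse receptor for the death ligand TRAIL. Its level was 8.14, 7.81, 7.91, 7.22 and 7.43 in untreated DKO. The Control arrays read 6.18, 7.25 and 6.32, the HRas-KO arrays 6.39, 5.88 and 6.56, and the NRas-KO arrays 6.34, 6.55 and 6.93. Control replicate 2 thus lay just inside the DKO range, and the other 8 untreated arrays lay below it. The difference from Control was 1.11 ± 0.25, or 2.16-fold, and from HRas-KO 1.42 ± 0.25, or 2.68-fold.

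Trp53inp1 encodes a stress protein that assists p53 and promotes autophagy. It read 10.98, 10.76, 10.90, 10.39 and 10.67 in untreated DKO, and 9.17 and 10.33 in Control replicates 1 and 3, with replicate 2 between them. The HRas-KO arrays read 9.04, 9.30 and 10.08, and the NRas-KO arrays 9.20, 10.03 and 9.89. All DKO arrays stood above the other untreated arrays, although the lowest DKO array exceeded the highest Control array only slightly. The difference from Control was 0.91 ± 0.21, and it was 0.58 without Control replicate 1.

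Sesn1 and Sesn2 encode sestrins, stress proteins that inhibit the growth-promoting kinase complex mTORC1, and Sesn2 is also raised by ATF4 and NRF2. Sesn1 read 9.56, 9.35, 10.19, 9.27 and 9.48 in untreated DKO, and 8.27, 8.89 and 9.24 in Control. It read 8.23, 8.28 and 8.69 in HRas-KO and 8.18, 8.74 and 8.75 in NRas-KO. The DKO arrays did not overlap the others, though the gap to the highest Control array was narrow. The difference from Control was 0.77 ± 0.20, and 0.50 without Control replicate 1.

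Sesn2 read 7.95, 7.45, 7.14, 8.25 and 7.64 in untreated DKO and 6.88, 6.97 and 6.67 in Control. It read 7.02, 6.85 and 7.13 in HRas-KO and 6.87, 6.80 and 7.37 in NRas-KO. NRas-KO replicate 3 lay inside the DKO range and all other untreated arrays below it. The difference from Control was 0.85 ± 0.20.

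Cdkn1a encodes p21, the inhibitor of cyclin-dependent kinases through which p53 stops the cell cycle. It read 11.34, 11.35, 10.93, 11.25 and 11.37 in untreated DKO and 10.70, 11.03 and 10.84 in Control. It read 10.52, 10.64 and 10.81 in HRas-KO and 10.56, 10.53 and 10.80 in NRas-KO. DKO replicate 3 lay between Control replicates 2 and 3, and the other 4 DKO arrays lay above all other untreated arrays. The difference was 0.39 ± 0.12 from Control, which was not past the threshold, and 0.59 ± 0.12 and 0.62 ± 0.12 from HRas-KO and NRas-KO, which were.

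Phlda3 encodes a lipid-binding repressor of the kinase AKT, and it was the only one of the 9 with a lower level in DKO. It read 7.38, 7.28, 7.15, 7.34 and 7.45 there and 7.91, 7.92 and 7.85 in Control. It read 8.17, 8.20 and 7.98 in HRas-KO and 8.01, 7.85 and 7.87 in NRas-KO. All DKO arrays stood below all other untreated arrays. The difference from Control was -0.57 ± 0.11, and from HRas-KO -0.80 ± 0.11.

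Mdm2 and Ccng1 encode the p53 ubiquitin ligase and cyclin G1, both of which act back on p53. Mdm2 lay between 8.09 and 8.51 on all 14 untreated arrays and differed by 0.06 ± 0.13 between DKO and Control. Ccng1 lay between 7.80 and 8.52 on those arrays and also differed by 0.06 ± 0.18. For both genes the untreated groups overlapped one another.

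The single knockouts had no called difference from Control. None of the 9 genes was called in HRas-KO or NRas-KO against Control, nor was any gene of the table (0.0% in both). At an unadjusted p under 0.05 the fit gave 0 of the 9 in either comparison and 190 and 231 of all genes (0.857% and 1.04%). The differences of the 9 genes lay between -0.40 and 0.22 in HRas-KO and between -0.24 and 0.19 in NRas-KO, and both comparisons share the Control arrays described above. With 3 arrays a group, the standard errors of these differences were 0.12 to 0.28, so a missed threshold does not show that the groups are alike. Phlda3 read 7.98 to 8.20 in HRas-KO, above all Control arrays at 7.85 to 7.92.

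Whether DKO differed by more than the sum of the single knockouts was described in the same untreated arrays. DKO minus Control, less the differences of HRas-KO and NRas-KO from Control, was 1.41 for Sesn1, 1.40 for Tnfrsf10b, 1.39 for Trp53inp1 and 1.27 for Perp. It was 0.82 for Cdkn1a, 0.51 for Sesn2 and -0.81 for Phlda3. Of the 9 genes 4 were past the threshold, with Sesn1, Perp and Cdkn1a higher and Phlda3 lower, where 0.225% of all genes were (0.14% higher and 0.0857% lower). The count lay between 0 and 5 when 1 array was left out, and it was 0 without any one of Control replicates 2 and 3, HRas-KO replicate 2 and NRas-KO replicate 1.

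**Figure D1:**
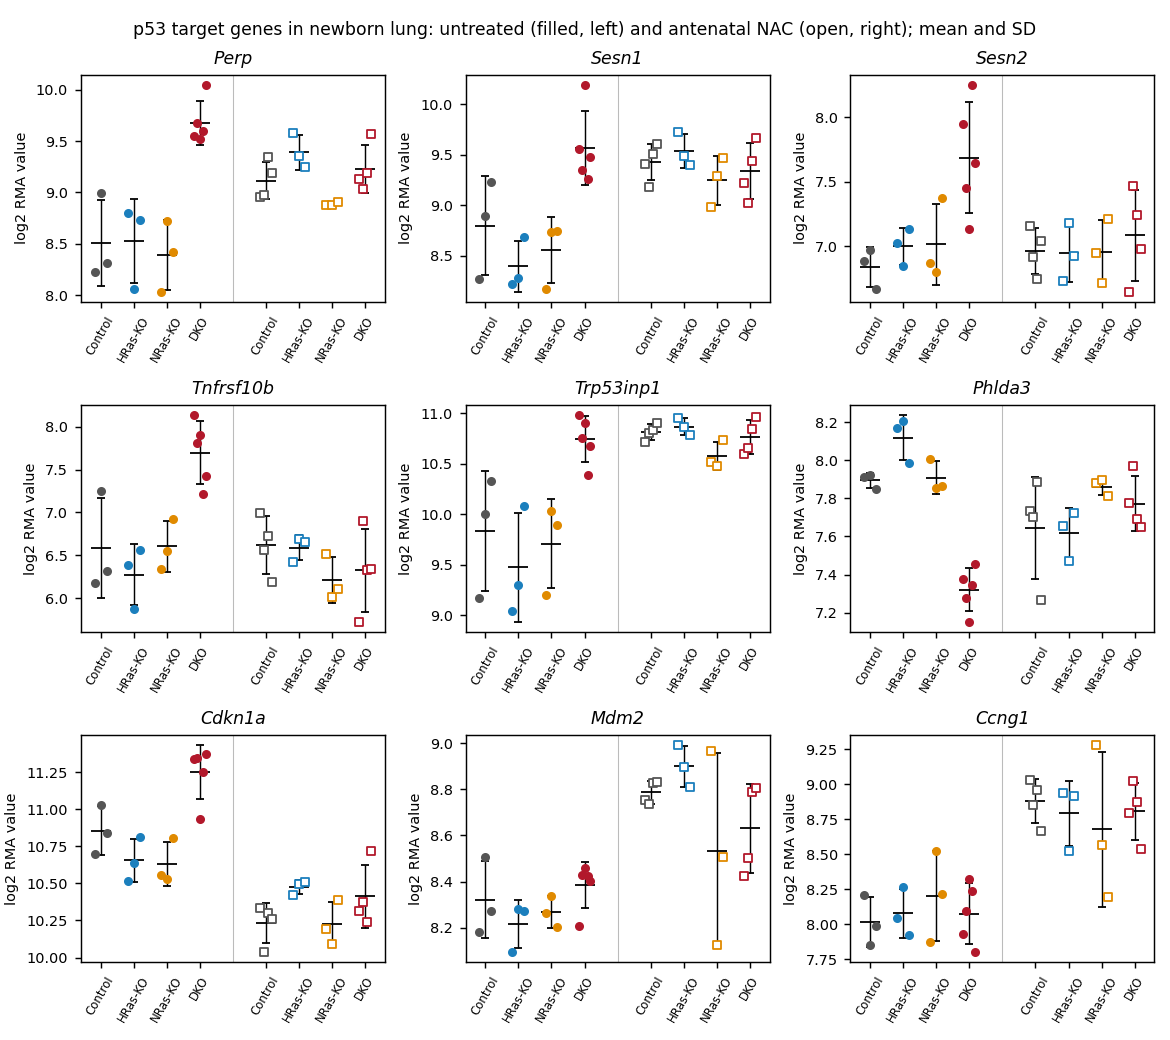
Log2 levels of the 9 p53 target genes (y axes) in the 8 groups (x axes), with 1 point per array, filled for untreated and open for NAC, and the group mean ± SD. In untreated DKO the points of Perp, Sesn1 and Trp53inp1 lie above, and those of Phlda3 below, all 9 other untreated arrays, while Mdm2 and Ccng1 have a higher mean in each NAC group than in the untreated group of the same genotype.

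Untreated DKO stood clear of the 9 other untreated arrays, in single arrays rather than means, for 4 of the 9 genes: Perp, Sesn1, Trp53inp1 and Phlda3. Over all genes 4.18% did so. Untreated arrays of the other genotypes also differed with their code start. Trp53inp1 read 9.04 to 9.30 in the 4 arrays with code starts C117 and C118 and 9.89 to 10.33 in the 5 with H058, and Sesn1 read 8.18 to 8.28 and 8.69 to 9.24. The other 7 genes overlapped between these code starts, and 8.86% of all genes did not. Against the mean of the H058 arrays alone, the DKO mean was higher by 1.05 for Perp, 0.97 for Tnfrsf10b, 0.71 for Sesn1, 0.70 for Sesn2, 0.67 for Trp53inp1 and 0.45 for Cdkn1a, and Phlda3 differed by -0.57.

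Marker genes of several cell types were examined beside these differences. The mean deviation of 7 measured erythroid markers of 10 was 0.18 to 0.83 in the DKO arrays and -0.28 to 0.17 in Control. That of 10 skeletal muscle markers was -0.20 to 1.47 in DKO and -0.10 to 0.74 in Control. For the type 2 cell markers it was -0.27 to 0.05 in DKO and 0.05 to 0.23 in Control. Endothelial markers stood at -0.08 to 0.06 in DKO and 0.01 to 0.20 in Control, and fibroblast markers at -0.10 to 0.40 and 0.04 to 0.23. Type 2, endothelial and fibroblast means were not used as covariates. The part of these cell types in the differences of the p53 targets was not tested. With the erythroid mean as a covariate the fit called 5 of the 9 genes in place of 6, Sesn2 being the one lost at a difference of 0.77. The differences of Perp, Tnfrsf10b and Trp53inp1 were then 1.35, 1.63 and 1.58. The erythroid means of DKO and Control did not overlap, and the slope of the covariate comes from spread within groups. These values therefore do not show the part of red cells. With the skeletal muscle mean as a covariate the fit also called 5, Sesn1 being the one lost at 0.70.

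In lungs from NAC-exposed pregnancies, none of the 9 genes was called between DKO and Control. The comparison of DKO+NAC with Control+NAC called 0 of the 9 genes and 0.0% of all genes in limma, and at an unadjusted p under 0.05 it gave 0 of the 9 and 2116 of 22180 genes (9.54%). An exact two-sided permutation test over the 4 and 4 arrays, whose smallest possible p is 0.0286, gave p-values between 0.257 and 0.657 for the 9 genes. A p that misses the threshold does not show that the groups are alike, and the intervals of the differences are given below.

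Perp read 9.13, 9.03, 9.19 and 9.57 in DKO+NAC and 8.96, 8.98, 9.34 and 9.18 in Control+NAC. The difference was 0.11, with a 95% interval from -0.25 to 0.47 (limma, adjusted p = 0.87). The groups overlapped.

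Tnfrsf10b read 5.72, 6.91, 6.33 and 6.34 in DKO+NAC and 6.99, 6.56, 6.72 and 6.19 in Control+NAC. The difference was -0.29, with an interval from -0.79 to 0.21 (limma, adjusted p = 0.73). The 14 NAC arrays lay at 5.72 to 6.99, below every untreated DKO array, of which the lowest was 7.22.

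Trp53inp1 read 10.60, 10.66, 10.84 and 10.96 in DKO+NAC and 10.71, 10.80, 10.83 and 10.90 in Control+NAC. The difference was -0.05, with an interval from -0.47 to 0.38. For this gene the Control+NAC arrays had the level of untreated DKO, 10.39 to 10.98, rather than that of Control.

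Phlda3 read 7.78, 7.97, 7.69 and 7.65 in DKO+NAC and 7.73, 7.70, 7.89 and 7.26 in Control+NAC, a difference of 0.13 with an interval from -0.09 to 0.34. Cdkn1a read 10.32, 10.38, 10.24 and 10.71 in DKO+NAC and 10.34, 10.04, 10.30 and 10.26 in Control+NAC, a difference of 0.18 with an interval from -0.05 to 0.41. Both pairs of groups overlapped. The remaining genes differed by -0.09 (interval -0.50 to 0.32) for Sesn1, 0.12 (-0.27 to 0.51) for Sesn2, -0.16 (-0.41 to 0.10) for Mdm2 and -0.07 (-0.43 to 0.29) for Ccng1.

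In this arm some code starts held arrays of both genotypes, which allowed a look within them. Within T445, which held 1 DKO+NAC and 3 Control+NAC arrays, the DKO+NAC array differed from the mean of the others by 0.09 for Perp, -0.43 for Tnfrsf10b, 0.06 for Trp53inp1 and 0.02 for Cdkn1a. Within T453, with 1 array of each, the differences were 0.38, 0.16, 0.06 and 0.46, and the DKO+NAC array there is the library labelled DKO+NAC replicate 4, whose Nras level was that of arrays carrying the gene. These single arrays allow no test. All 4 DKO+NAC arrays had a high level of Xist, the X-inactivation transcript of female cells (10.84 to 11.07), the HRas-KO+NAC arrays a low one (4.38 to 4.60), and the other 6 groups held both. With Xist as a covariate the fit again called 0 of the 9 genes in this comparison. It also called 0 without the library labelled DKO+NAC replicate 4, and the differences then lay between -0.30 for Tnfrsf10b and 0.17 for Phlda3.

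The single knockouts with NAC were not called against Control+NAC. None of the 9 genes and 0.0% of all genes were called in HRas-KO+NAC or NRas-KO+NAC against Control+NAC, with 0 of the 9 genes and 1408 and 2321 of all genes at an unadjusted p under 0.05. The same held for DKO+NAC against HRas-KO+NAC (0.0% called, 0 of the 9 and 1482 of all genes unadjusted) and against NRas-KO+NAC (0.0%, 0 of the 9 and 826). The largest of these 36 differences was -0.40 ± 0.26, for Tnfrsf10b in NRas-KO+NAC against Control+NAC, with a 95% interval from -0.94 to 0.13.

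**Figure D2:**
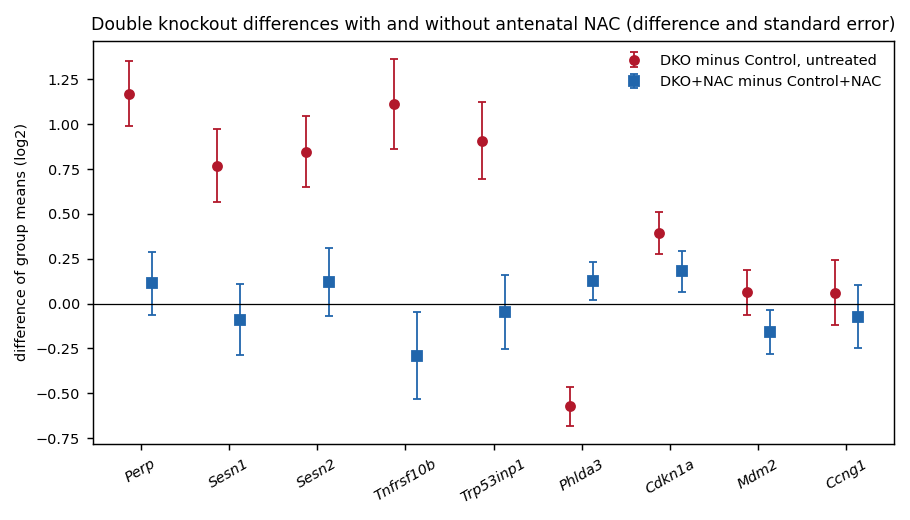
Difference between DKO and Control in log2 level for each of the 9 genes (x axis), in untreated lungs and in lungs with antenatal NAC; bars are standard errors. Untreated, Perp stood at 1.17 and Tnfrsf10b at 1.11, and with NAC they stood at 0.11 and -0.29.

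The change of the DKO difference with NAC, that is, DKO+NAC minus Control+NAC minus the same difference without NAC, shares its untreated arrays with the contrast that chose the list and is given without p-values. It was -1.40 ± 0.35 for Tnfrsf10b, -1.06 ± 0.25 for Perp, -0.95 ± 0.30 for Trp53inp1, -0.86 ± 0.28 for Sesn1, -0.73 ± 0.27 for Sesn2 and 0.70 ± 0.15 for Phlda3. For Cdkn1a, Mdm2 and Ccng1 it lay between -0.22 and -0.13. Of the 9 genes 1 was past the threshold, Phlda3, against 0.388% of all genes, and its value lay between 0.57 and 0.73 in the 8 fits without 1 array in which it was no longer past it. Without the library labelled DKO+NAC replicate 4 it was 0.74. Code starts differ between the arms, so NAC and code start cannot be told apart here.

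The NAC differences within a genotype are described without p-values, since the untreated arrays of every genotype entered the contrasts that chose the list, and counts of genes past the threshold are descriptions too. Whether arrays with and without NAC overlapped is likewise given for single genes as a description. The share of all genes that did not overlap is not given here, so a lack of overlap says nothing about the 9 genes as a set. NAC-exposed HRas-KO lungs had higher levels of 5 of the 9 genes than untreated HRas-KO lungs, Trp53inp1, Sesn1, Perp, Ccng1 and Mdm2, and a lower level of Phlda3. In limma 6 of the 9 were past the threshold there, where 11.8% of all genes were (6.73% higher and 5.1% lower). The median difference of the 9 genes was 0.68 against 0.02 over all genes. In NRas-KO, 1 of the 9 was past it, Trp53inp1, which was higher, where 6.42% of all genes were (2.86% higher), and the median difference was 0.26 against 0.03.

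Trp53inp1 read 10.95, 10.86 and 10.78 in HRas-KO+NAC, against 9.04, 9.30 and 10.08 in HRas-KO. The difference was 1.39 ± 0.24, or 2.62-fold. In NRas-KO+NAC it read 10.52, 10.47 and 10.73, against 9.20, 10.03 and 9.89, a difference of 0.87 ± 0.24. The groups did not overlap in either genotype. Among all 9 genes, only Trp53inp1 separated the 14 NAC arrays, at 10.47 to 10.96, from the 9 untreated arrays without DKO, at 9.04 to 10.33, and 4.67% of all genes did so. In NRas-KO it was no longer past the threshold without any one of NRas-KO replicate 1 and NRas-KO+NAC replicates 1, 2 and 3, with differences of 0.61, 0.90, 0.92 and 0.79.

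Sesn1 read 9.73, 9.49 and 9.40 in HRas-KO+NAC, against 8.23, 8.28 and 8.69 in HRas-KO. The difference was 1.14 ± 0.23, or 2.20-fold, and the groups did not overlap. In NRas-KO the arrays also did not overlap, at 8.99, 9.29 and 9.47 with NAC, and the difference was 0.69 ± 0.23, not past the threshold.

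Perp read 9.58, 9.35 and 9.25 in HRas-KO+NAC and 8.80, 8.06 and 8.73 in HRas-KO, a difference of 0.86 ± 0.20. Without HRas-KO replicate 2, the lowest array, the difference was 0.63 and no longer past the threshold. In NRas-KO+NAC it read 8.87, 8.88 and 8.90, all above the NRas-KO arrays, with a difference of 0.50 ± 0.20 that was not past the threshold.

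Ccng1 and Mdm2, whose untreated groups overlapped, did not overlap between HRas-KO and HRas-KO+NAC. Ccng1 read 8.93, 8.52 and 8.92 with NAC and 8.04, 8.27 and 7.92 without, a difference of 0.71 ± 0.20. Mdm2 read 8.99, 8.90 and 8.81 with NAC and 8.09, 8.28 and 8.27 without, a difference of 0.68 ± 0.14. In NRas-KO their differences were 0.48 ± 0.20 and 0.26 ± 0.14, neither past the threshold, and the groups overlapped. Mdm2 in NRas-KO+NAC spread widely, at 8.97, 8.12 and 8.51. Ccng1 was no longer past the threshold without HRas-KO replicate 1 or 3 or HRas-KO+NAC replicate 1 or 3, with differences from 0.64 to 0.70.

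Phlda3 read 7.65, 7.47 and 7.73 in HRas-KO+NAC and 8.17, 8.20 and 7.98 in HRas-KO, a difference of -0.50 ± 0.12. In NRas-KO it differed by -0.05 ± 0.12. Cdkn1a, Sesn2 and Tnfrsf10b were past the threshold in neither genotype. Cdkn1a differed by -0.18 and -0.41, and its groups did not overlap in either genotype. In HRas-KO the gap was very narrow, with the highest NAC array at 10.511 and the lowest untreated array at 10.517. Sesn2 differed by -0.06 in both, and Tnfrsf10b by 0.32 and -0.40.

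All of the NAC differences in HRas-KO rest on 3 untreated arrays with code starts C117, C118 and H058. On the NAC side all 3 HRas-KO+NAC arrays share 1 code start, T453. Their spread is therefore that within 1 code start and does not cover differences between code starts. Xist read 10.49, 10.49 and 4.30 in HRas-KO and 4.38 to 4.60 in HRas-KO+NAC, so its level was not balanced between these groups either. Without the C117 and C118 arrays, which leaves 1 HRas-KO array assumed to vary like the others, Trp53inp1 alone among the 6 stayed past the threshold, at 0.78, and the other 5 stood at 0.66 for Perp, 0.85 for Sesn1, 0.63 for Mdm2, 0.87 for Ccng1 and -0.37 for Phlda3. Markers of smooth muscle (7 of 7 measured), fibroblasts (9 of 9), type 2 cells (10 of 10) and endothelium (10 of 10) stood lower in the HRas-KO+NAC arrays. The mean deviation of the smooth muscle markers was 0.08 to 0.72 in HRas-KO and -0.37 to -0.11 in HRas-KO+NAC, and that of the fibroblast markers 0.01 to 0.28 and -0.26 to -0.06. For the type 2 markers it was 0.08 to 0.28 and -0.14 to -0.05, and for the endothelial markers 0.07 to 0.21 and -0.14 to -0.02. Over all 28 arrays Sesn1 and Trp53inp1 correlated with the type 2 marker mean at -0.89 and -0.88. Their part in the differences of the p53 targets was not tested.

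In Control, NAC arrays had higher Trp53inp1 by 0.98 ± 0.22, Ccng1 by 0.86 ± 0.19, Sesn1 by 0.63 ± 0.21, Perp by 0.61 ± 0.19 and Mdm2 by 0.47 ± 0.13. Cdkn1a differed by -0.62 ± 0.12, its 4 NAC arrays at 10.04 to 10.34 all lying below the Control arrays. These 6 of 9 were past the threshold, 5 higher and 1 lower, where 13.5% of all genes were (7.86% higher and 5.68% lower). Without Control replicate 1 the number past it was 2.

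In DKO, 5 of the 9 were past the threshold, 2 higher and 3 lower, where 12.2% of all genes were (5.74% higher and 6.46% lower). Tnfrsf10b differed by -1.37 ± 0.23, Cdkn1a by -0.84 ± 0.11 and Sesn2 by -0.60 ± 0.18. Phlda3 was higher by 0.45 ± 0.10 and Ccng1 by 0.73 ± 0.17. Trp53inp1 differed by 0.02 ± 0.20, Sesn1 by -0.23 ± 0.19 and Perp by -0.45 ± 0.17, none of them past the threshold. Without the library labelled DKO+NAC replicate 4, 5 of the 9 were again past it, with Sesn2 no longer among them at -0.57, and Tnfrsf10b and Cdkn1a differed by -1.38 and -0.94. Xist read 3.95 to 10.36 in untreated DKO and 10.84 to 11.07 in DKO+NAC, so its level was not balanced between these groups.

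**Figure D3:**
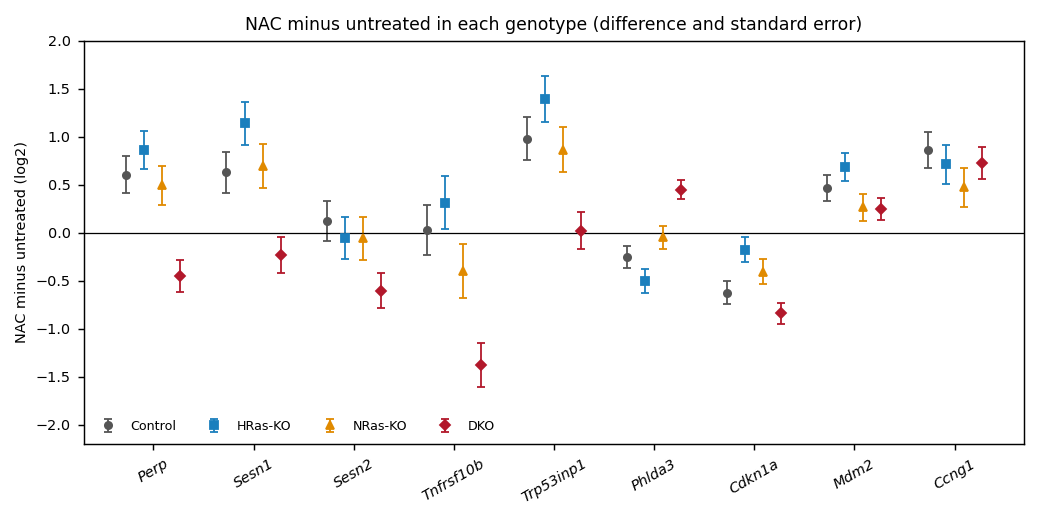
Difference between NAC-exposed and untreated lungs in log2 level for each of the 9 genes (x axis), in the 4 genotypes; bars are standard errors. Ccng1 lies above 0 in every genotype, from 0.48 to 0.86, while Tnfrsf10b and Cdkn1a lie lowest in DKO, at -1.37 and -0.84.

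The 9 genes differed in how closely they followed one another from animal to animal. Over 28 arrays, correlations of pairs of genes are given as descriptions, and the arrays share groups, code starts and normalization. Sesn1 and Trp53inp1 went together over all arrays (r = 0.93) and after each group's mean was removed (r = 0.80). Of the 36 pairs, that was 1 of 2 whose correlation after removing group means was beyond 0.5 in size, the other being Sesn1 and Phlda3 at -0.51. Tnfrsf10b and Cdkn1a correlated at 0.71 over all arrays and 0.29 within groups, and Mdm2 and Ccng1 at 0.72 and 0.29. The sestrins Sesn1 and Sesn2 correlated at 0.19 and -0.27.

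**Figure D4:**
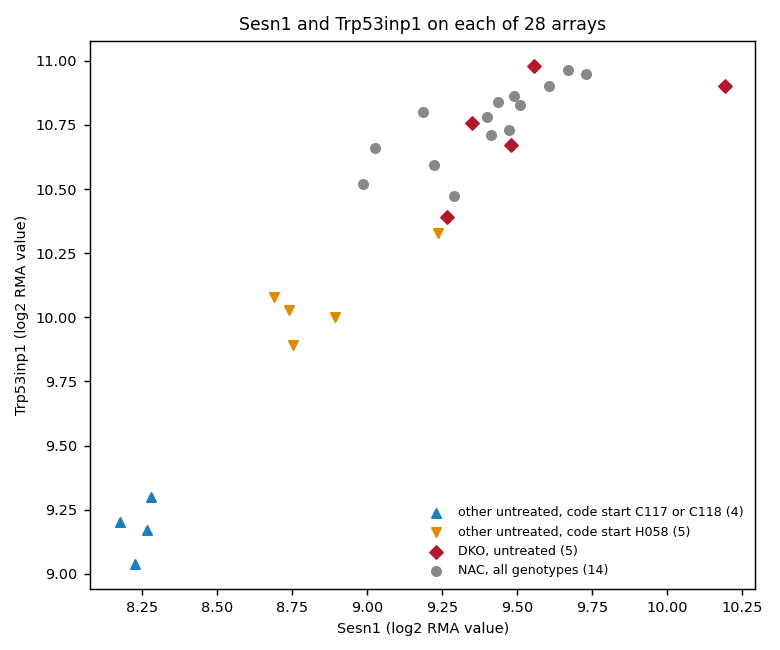
Log2 level of Trp53inp1 (y axis) against that of Sesn1 (x axis), 1 point per array, for 4 untreated arrays without DKO of code starts C117 and C118, 5 of H058, 5 untreated DKO arrays and 14 NAC arrays. The C117 and C118 arrays form a cluster of their own at low levels of both genes, with Trp53inp1 at 9.04 to 9.30 and Sesn1 at 8.18 to 8.28.

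Within groups, Cdkn1a and Perp followed the mean of the glucocorticoid-responsive genes (r = 0.84 and 0.76), a list that here leaves out Cdkn1a itself. Mdm2 followed the mean of the other p53 targets (r = 0.79). Sesn1 and Trp53inp1 went against the mean of the type 2 cell markers (r = -0.75 and -0.74). Sesn1 also went against the mean of the macrophage markers (r = -0.75). These are among the highest of many correlations examined, over the same 28 arrays. With the mean of the other p53 targets, members other than Mdm2 correlated at -0.04 (Phlda3) to 0.58 (Tnfrsf10b) within groups. The gene of 18213 compared that was most like Trp53inp1 over all arrays was Rnf2 (r = 0.96), and Sesn1 was next at 0.93. The nearest gene was Jmy for Perp (r = 0.90), Pnpla2 for Cdkn1a (0.93), Gulp1 for Ccng1 (0.92), Fbxo33 for Mdm2 (0.91), Pde2a for Tnfrsf10b (0.87), Ckb for Sesn2 (0.86) and Eif5a for Phlda3 (0.83).

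Other genes of the p53 pathway gave context for the 9. These lists were chosen with earlier results of the data known, and the genes named from them mostly by small p. Their adjusted p-values, here and in the 2 paragraphs that follow, describe single genes and are no evidence about a list. Where a gene rose or fell with NAC, NAC and code start cannot be told apart. Of 38 other p53 targets listed, 35 were measured. In DKO against Control, 3 of them were past the threshold, all higher, where 3.83% of all genes were past it: the death receptor gene Fas by 0.71 ± 0.17, Ackr3, a chemokine-binding receptor, by 0.67 ± 0.18, and Ppm1d, the phosphatase that turns the p53 response off, by 0.42 ± 0.10. The median over the 35 was 0.09, against 0.02 over all genes. With NAC in HRas-KO, 6 rose and 2 fell, where 11.8% of all genes were called, with a median of 0.05 against 0.02. With NAC in NRas-KO, 3 rose, where 2.86% of all genes did, with a median of -0.0044 against 0.03. Rchy1, another p53 ubiquitin ligase, rose by 0.94 ± 0.13 in HRas-KO (limma, adjusted p = 8.7e-05) and by 0.65 ± 0.13 in NRas-KO (adjusted p = 0.0036). Ppm1d rose by 0.56 ± 0.11 (limma, adjusted p = 0.0011) and 0.45 ± 0.11 (adjusted p = 0.012). Pidd1, an adaptor of the caspase-2 death complex, fell by 0.46 in HRas-KO (limma, adjusted p = 0.0065). Dram1, which promotes autophagy, rose by 0.35 ± 0.10 (limma, adjusted p = 0.021) and 0.39 ± 0.10 (adjusted p = 0.018).

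Among 20 measured regulators of p53, kinases and cofactors, 1 was past the threshold in DKO against Control, Dyrk2, which encodes a kinase of p53, at 8.02 ± 0.15 (SD, n = 5) in DKO and 8.69 ± 0.24 (SD, n = 3) in Control, a difference of -0.67 ± 0.13, where 3.83% of all genes were. With NAC in HRas-KO 2 rose and 3 fell, where 6.73% of all genes rose and 5.1% fell. The kinase gene Hipk2, which activates p53 after damage, fell by 0.64 on the log2 scale there (limma, adjusted p = 0.0019) and by 0.64 in NRas-KO (adjusted p = 0.0033). Ep300, a histone acetyltransferase and coactivator, fell by 0.47 in HRas-KO (limma, adjusted p = 0.019), and Ppp1r13l, which encodes an inhibitor of p53, fell by 0.48 (limma, adjusted p = 0.0083). The checkpoint kinase gene Atr rose by 0.65 ± 0.18 (limma, adjusted p = 0.020). The BCL2 family, which decides mitochondrial death, had 15 measured genes. None was called with NAC in HRas-KO or in NRas-KO, where 11.8% and 6.42% of all genes were. In DKO against Control 1 of the 15 was called, Bcl2a1a, at -0.65 ± 0.13, where 3.83% of all genes were called and 1.35% were lower.

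Among 12 desmosome genes, Perp was the 1 past the threshold in DKO against Control, the contrast that chose it, where 3.83% of all genes were. Jup, which encodes plakoglobin, fell with NAC by 0.70 in HRas-KO (limma, adjusted p = 0.00089) and by 0.60 in NRas-KO (adjusted p = 0.0061). Of 16 FOXO-linked genes, 5 were higher with NAC in HRas-KO, where 6.73% of all genes were. Among these were the member Sesn1, Sesn3 by 0.67 ± 0.17 and Ccng2 by 0.82 ± 0.15 (limma, adjusted p = 0.0007). A fall was seen in 1, where 5.1% of all genes fell: Bcl6 (-0.98 ± 0.27), named here after its value was seen. Of 8 cyclin-dependent kinase inhibitor genes, Cdkn1b and Cdkn2c, 2 genes against the same 6.73% of all genes, rose there, by 0.61 ± 0.15 and 0.60 ± 0.15 (limma, adjusted p = 0.0075 and 0.011), while Cdkn1a was not called. Of 11 measured NRF2 targets, which protect against oxidants, Nqo1 (0.60 ± 0.13) and Sesn2 were higher in DKO against Control. In that contrast 2.48% of all genes were higher. Sesn2 is a member that this contrast chose, so Nqo1 was the only called NRF2 target apart from the members. None of the 11 was called with NAC in HRas-KO or NRas-KO, where 11.8% and 6.42% of all genes were.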

How the data were processed

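Total RNA of 28 whole newborn lungs was measured on 1-colour arrays. The deposited log2 values, 1 per probe set and array, come from RMA (background correction, quantile normalization and probe-set summary) and affy, as the submitters' processing notes name them. Versions, the log base and whether the arrays were normalized in 1 run are not given in the sources used here. Values span a range (2.28 to 13.55) usual for log2 levels. Of 41345 probe sets, the platform annotation pairs 23521 with a single gene symbol and 1814 with several, and does not list 16010. Where 1 symbol had several probe sets (1082 of 22180 genes), the one with the highest mean was used.

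The model, fitted with limma 3.58.1 (R 4.3.3) after it was tested on simulated data, had a mean per group over all 8 groups, with 20 residual and 5.95 prior degrees of freedom. The threshold in each of 17 comparisons was an adjusted p (Benjamini-Hochberg, all genes) under 0.05. p-values measure the spread between pups, while NAC was given to dams. The members and all lists were chosen with earlier results of these data known. NAC within HRas-KO and NRas-KO was planned as a test, but its untreated arrays entered the contrasts that chose the members, so no member p-value is given there. Named are all 9 members, Nras and the genes most like a member over all arrays. From some pathway lists, called genes with small p (up to 4 a comparison) are named too. Lists of ATF4-linked genes, glucocorticoid-responsive genes and TNF-type death receptors and ligands were also examined. Called genes of these lists other than members, among them Ddit4, Per1 and Tnfrsf1a, are not described here. Marker deviations are means over a list of each gene's log2 level minus its mean over all arrays. Alternatives covered the probe-set rule, normalization, moderation, array weights, filters, the groups fitted, covariates, a replicate block and leaving out each array. Precision is limited by the number of arrays. Promoters came from a RefSeq table of GRCm38.p6.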

Additional observations from a re-analysis of the deposited data

Results flagged for a closer look

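Of 30 combinations of gene and group with 4 or more arrays, 2 held an array far from the rest by Dixon's gap test, which chance alone flags in about 1 of 20 groups. In untreated DKO, Cdkn1a read 10.93 in replicate 3 while the other 4 arrays lay between 11.25 and 11.37. Mdm2 read 8.21 in replicate 1 while the other 4 lay between 8.40 and 8.46.

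The DKO difference departed from the sum of the single-knockout differences, past the threshold, in Sesn1 (1.41), Perp (1.27), Cdkn1a (0.82) and Phlda3 (-0.81). These untreated arrays chose the list, so the values are descriptions. The DKO difference of Phlda3 also changed with NAC, by 0.70. With NAC, Phlda3 was higher in DKO (0.45) and lower in HRas-KO (-0.50), and every NAC array lay above every untreated array in the one genotype and below in the other. That difference between the genotypes was not tested.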

How the results depend on the processing

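Numbers here count how many of the 9 genes passed the threshold. Leaving out 1 array at a time gave 2 to 6 in DKO against Control, 6 to 7 against HRas-KO, 4 to 7 against NRas-KO, 0 to 5 for the departure of DKO from the sum of the single knockouts, 2 to 6 for NAC in Control, 5 to 6 for NAC in HRas-KO, 0 to 2 for NAC in NRas-KO, 4 to 5 for NAC in DKO and 0 to 2 for the change of the DKO difference with NAC. The low values came without Control replicate 1 (DKO against Control, NAC in Control) and without NRas-KO replicate 1 (DKO against NRas-KO, NAC in NRas-KO). With the arrays of the compared groups alone, DKO against Control gave 2, the departure from the sum 1, NAC in NRas-KO 0 and the change with NAC 0. Without the C117 and C118 arrays these gave 3, 0 (departure), 0 (change), and DKO against HRas-KO 0, NAC in Control 3 and NAC in HRas-KO 1; by construction this leaves 1 HRas-KO array. The departure gave 2 with all probe sets tested, 2 with arrays normalized again by quantiles, 2 with Xist as a covariate and 1 with skeletal muscle markers as a covariate. NAC in NRas-KO gave 3 without the dimmest genes, 3 with Xist, 2 with skeletal muscle markers and 2 with erythroid markers as a covariate. The change with NAC gave 3 without the dimmest genes, 2 with arrays centred on their median, 2 without DKO replicates 1 and 3, and 4 with erythroid markers. Same-numbered arrays are not paired (mean correlation of their deviations 0.0212 over 37 pairs); with the replicate number as a block NAC in NRas-KO gave 2 in place of 1 and the change with NAC 0 in place of 1, and other counts stayed within 1.5 times. The cause of these shifts was not tested. All 6 comparisons within the NAC arm gave 0 in every fit. Over 1247 refits of 52 differences of single genes, 1073 kept their side of the threshold, 174 fell back below it, and no called difference changed sign. The code start, Xist, muscle and erythroid settings, and the fit without DKO replicates 1 and 3, were chosen after seeing the data.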
